A study of Arabidopsis thaliana with 6 samples.

Results

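The transcripts of the mitochondrial genome were followed in *gis5* and WT seedlings of *Arabidopsis thaliana* on the Affymetrix ATH1 array. They were read through the block of probe sets taken as that of the mitochondrial genome, which also holds probe sets for other genes. A probe set is the group of short oligonucleotides that together report 1 transcript, and its number in the array design places it in or out of the block. The block runs from 244901_at to 244959_s_at and holds 59 probe sets. Of these, 9 were left out because the platform annotation gives a chloroplast gene and 5 because it gives a nuclear gene, so that 45 of the 22746 probe sets tested were kept. A gene name was available for 14 of the 45, and the other 31 are described by their probe set names. That those 31 report mitochondrial transcripts rests on their place in the block alone.

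The *gis5* seedlings carry an EMS-induced point mutation that changes 1 amino acid in the catalytic subunit of DNA polymerase δ, the nuclear enzyme of lagging strand synthesis, and they are compared with WT seedlings of the same Columbia cultivar. Both genotypes were whole seedlings, leaves and roots together, 10 days old and grown under continuous light on MS medium, with 3 biological replicates each. The growth temperature is 24°C in the methods and 23°C in the description of the series. The mutant is a single allele, which is thermosensitive, and every array reports a mixture of all organs of the seedling, so that fewer mitochondria or fewer cells of a type cannot be told apart from less RNA in each. The labels call the replicates biological but do not say whether they were separate cultures. The p-values weigh the difference between genotypes against the spread between arrays, moderated over all probe sets. That spread may be partly technical.

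Plant mitochondria keep a small genome of their own, which encodes some of the subunits of the respiratory complexes, proteins that attach heme to cytochrome *c*, some ribosomal proteins, a maturase and many open reading frames of unknown function. Most respiratory subunits are nuclear genes, and the complexes are assembled from both sources. Mitochondrial transcripts mature by intron splicing, C-to-U editing and end trimming, and in plant organelles a poly(A) tail usually marks an RNA for decay. This matters for the values here. The Affymetrix labelling protocol primes cDNA synthesis on poly(A) tails, so the signals favour polyadenylated RNA and do not measure the bulk of the organelle transcripts. A further limit is that chromosome 2 of the Columbia nucleus carries a long insertion of mitochondrial DNA, whose copies are close to identical to the originals.

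Each array was scaled by the authors to the same trimmed mean, and after that scaling the medians of the 6 arrays lay within 9.53% of each other, with correlations between arrays of 0.958 to 0.974. Of the marker genes listed, 1 of 7 for leaf and 2 of 8 for root could be matched to a probe set through the annotation table used, which lists 14016 of the 22746 probe sets. LHCB4.1, a light-harvesting protein of leaves, averaged 24430 ± 1311 in *gis5* and 32090 ± 3243 in WT (SD, n = 3 each), and PYK10, a root β-glucosidase, averaged 20950 ± 1767 in *gis5* and 19620 ± 4010 in WT. Both organs were therefore present on the arrays of both genotypes. EXP7, an expansin of root hair cells, averaged 173 ± 25.3 in *gis5* and 102 ± 63.4 in WT. The *gis5* arrays of LHCB4.1 all lay below the WT arrays (log2 ratio -0.39 ± 0.15, unadjusted p = 0.0396 by limma), while those of PYK10 and EXP7 overlapped with WT. None of the 3 markers differed at an adjusted p under 0.05 (limma with Benjamini-Hochberg adjustment, 0.52 for LHCB4.1, 0.90 for PYK10 and 0.57 for EXP7), and the part of organ composition in the values below was not tested.

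The mitochondrial probe sets were dim. Their mean signals over the 6 arrays ranged from 4.07 to 454 with a median of 29.6, against a median of 185.5 for all probe sets tested, and only 4 of the 45 lay above that median. These 4 were *nad4*, *ccmFN1*, the probe set shared by *rps3* and *rpl16*, and *orf149*. A signal under 16 on at least 1 array was found for 29 of the 45, and 4 were under 16 on all arrays. Signals of different probe sets depend on their probes as well as on RNA abundance, so their order is an order of signals and not of transcript amounts.

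No mitochondrial probe set differed between *gis5* and WT at an adjusted p under 0.05. Ratios below are the mean of log2(signal + 16) in *gis5* minus that in WT, with the standard error from limma fitted across all 22746 probe sets. The smallest adjusted p among the 45 was 0.38, for *orf149*, and over the whole array 1 probe set passed, which is 0.0044% of those tested. At an unadjusted p under 0.05, 1 of the 45 was higher in *gis5* (background 5.99% of all probe sets) and 0 were lower (3.06%). The 3 *gis5* arrays lay wholly above the 3 WT arrays for 2 of the 45 (9.13%) and wholly below them for 0 (6.79%). The thresholds of the study's methods, a p under 0.05 together with a difference of 1 or more on the log2 scale, were applied here to the unadjusted limma p and to log2(signal + 16), and were met by 0 of the 45 (1.38% of all probe sets higher and 0.541% lower in *gis5*).

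The ratios of the 45 ranged from -0.76 to 0.94. They were above 0 for 28 and below 0 for 17, with a median of 0.07, against 53.6% above 0 and a median of 0.03 for all probe sets tested. When each array was centred on its own median, which moves the median of all probe sets to -0.04, the median of the mitochondrial probe sets was 0.00.

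Complex I, the NADH dehydrogenase of the respiratory chain, had 5 named probe sets, of which 3 had ratios above 0 and 2 below. *nad4*, a proton-pumping subunit of the membrane arm, gave the highest mean signal of the 45, with 653, 617 and 393 in *gis5* replicates 1, 2 and 3, against 244, 394 and 423 in WT. The first 2 *gis5* arrays lay above every WT array, and the third lay just below WT replicate 2, so the groups overlapped. The mean signal was 554 ± 141 in *gis5* and 354 ± 96.2 in WT, and the log2 ratio came to 0.63 ± 0.29 (SE, 95% CI -0.05 to 1.31, limma adjusted p = 0.58).

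*nad9*, a subunit of the matrix arm, went the other way in its means. It gave 50.1, 91.2 and 64.2 in *gis5*, against 88.6, 96.3 and 103 in WT, a log2 ratio of -0.43 ± 0.21 (95% CI -0.93 to 0.07, limma adjusted p = 0.60). Only *gis5* replicate 2 reached into the WT range, and the WT arrays were close together. This was among the 3 smallest p-values on the lower side, with 0.0793 before adjustment.

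The other named subunits of complex I were dimmer, with mean signals of 52.0 for *nad4L*, 38.9 for *nad6* and 21.0 for *nad7*. *nad4L*, a small membrane subunit, gave 37.1, 72.7 and 45.3 in *gis5*, against 33.6, 70.6 and 52.6 in WT, a log2 ratio of -0.01 ± 0.28 (95% CI -0.68 to 0.66). In both genotypes replicate 2 was the highest, and the groups covered nearly the same range. *nad6*, another membrane subunit, gave 13.7, 43.7 and 65.2 in *gis5*, against 19.3, 58.7 and 32.6 in WT, with a log2 ratio of 0.06 ± 0.43. *nad7*, a matrix arm subunit that takes part in quinone binding, gave 3.59, 29.3 and 35.3 in *gis5*, against 7.81, 12.3 and 37.5 in WT, with a log2 ratio of 0.11 ± 0.45. For both, the arrays of 1 genotype differed more among themselves than the genotypes differed.

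**Figure D1:**
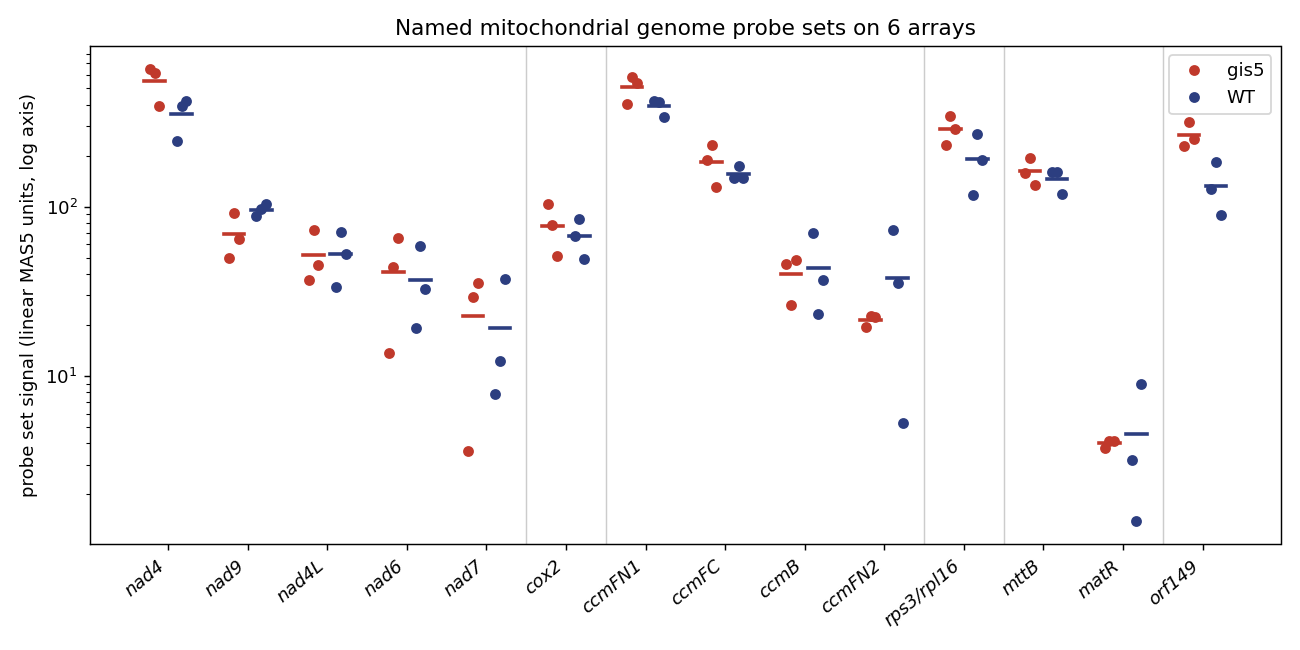
Signal of the 14 named mitochondrial probe sets (linear units, log axis) on each of the 3 *gis5* arrays (red, left of each pair) and the 3 WT arrays (blue, right), with bars at the group means; grey lines separate complex I, complex IV, cytochrome *c* maturation, ribosome, maturase or transport, and the open reading frame. The points of *orf149* do not overlap, those of *nad4* overlap through *gis5* replicate 3, and *nad7* and *nad6* scatter widely within each genotype.

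Complex IV was represented by *cox2*, the cytochrome *c* oxidase subunit that takes electrons from cytochrome *c*. It gave 103, 77.6 and 50.8 in *gis5*, against 66.8, 84.4 and 49.2 in WT, and the WT arrays lay within or next to the *gis5* range. The log2 ratio was 0.15 ± 0.27 (95% CI -0.49 to 0.79).

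The cytochrome *c* maturation genes, whose products carry and attach heme, had 4 probe sets, 2 with ratios above 0 and 2 below, and a median ratio of 0.08. *ccmFN1*, a part of the heme lyase named ccb382 in the array annotation, was the second highest in mean signal of the 45. It gave 406, 583 and 534 in *gis5*, against 419, 415 and 336 in WT. *gis5* replicates 2 and 3 were above every WT array, and *gis5* replicate 1 fell within the WT range. The log2 ratio was 0.36 ± 0.19 (95% CI -0.10 to 0.82, limma adjusted p = 0.64).

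*ccmFC*, another part of the heme lyase, gave 190, 231 and 130 in *gis5*, against 148, 174 and 147 in WT. The *gis5* arrays spanned the whole WT range from both sides, and the log2 ratio was 0.18 ± 0.22. The dimmer pair were below 50 in most arrays. *ccmB*, a membrane subunit of the heme export complex, gave 45.6, 26.3 and 48.7 in *gis5*, against 70.2, 23.4 and 36.8 in WT, with a log2 ratio of -0.03 ± 0.32. *ccmFN2*, a further heme lyase part, gave 19.4, 22.8 and 22.4 in *gis5*, against 72.7, 35.3 and 5.29 in WT, with a log2 ratio of -0.29 ± 0.48. The *gis5* arrays of *ccmFN2* were nearly equal and the WT arrays were spread on both sides of them.

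The 1 ribosomal probe set is shared by *rps3* and *rpl16*, which encode proteins of the small and the large mitochondrial ribosomal subunit and lie next to each other on the genome, so the transcripts of these genes cannot be told apart. It gave 233, 341 and 288 in *gis5*, against 117, 267 and 189 in WT. *gis5* replicates 2 and 3 were above every WT array, *gis5* replicate 1 was below WT replicate 2, and replicate 2 was the highest in both genotypes. The log2 ratio was 0.60 ± 0.30 (95% CI -0.12 to 1.32, limma adjusted p = 0.61). In the gene order of the mitochondrial genome *rpl16* is followed directly by *nad9*, whose ratio had the opposite sign. Neither of the 2 ratios passed the test.

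*mttB*, which encodes a membrane protein related to the TatC translocase of bacteria and is named orfX in the array annotation, gave 158, 195 and 134 in *gis5*, against 160, 161 and 118 in WT, a log2 ratio of 0.13 ± 0.20 (95% CI -0.34 to 0.61). The groups overlapped. *matR*, the maturase encoded within an intron of *nad1*, was among the dimmest of the 45, with 3.76, 4.11 and 4.14 in *gis5*, against 3.21, 1.39 and 9.03 in WT, and its ratio of -0.02 ± 0.18 is held near 0 by the 16 added to each signal.

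*orf149*, an open reading frame with the locus name ATMG00660, had the largest ratio of the 45. It gave 227, 315 and 249 in *gis5*, against 127, 183 and 89.6 in WT. The 3 *gis5* arrays all exceeded the 3 WT arrays. The means were 264 ± 45.4 in *gis5* and 133 ± 46.8 in WT, and the log2 ratio was 0.94 ± 0.26 (95% CI 0.32 to 1.57, unadjusted p = 0.0095, limma adjusted p = 0.38). Its limma adjusted p was between 0.0931 and 0.64 over the alternatives that set no filter on signal, and its ratio was between 0.72 and 1.18 as single arrays were left out. The name comes from a supplementary table of the study in which genes are ordered by the size of their difference on these same arrays, so that its being named and its large ratio are not independent.

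The 31 probe sets without a gene name had ratios above 0 for 19 and below 0 for 12, with a median of 0.05, and 29 of them had mean signals under 100. The brightest, 244906_at, gave 175, 197 and 142 in *gis5*, against 64.7, 141 and 160 in WT, a log2 ratio of 0.51 ± 0.32. WT replicate 1 stood well below the other 5 arrays, which overlapped. The next, 244921_s_at, gave 73.8, 237 and 95.2 in *gis5*, against 51.8, 180 and 73.5 in WT, a log2 ratio of 0.36 ± 0.52, and its replicate 2 was far above the others in both genotypes.

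Among the dim unnamed probe sets, 244901_at was the only one whose groups did not overlap, and by a narrow margin. It gave 63.3, 72.6 and 54.0 in *gis5*, against 45.0, 35.5 and 53.8 in WT, a log2 ratio of 0.39 ± 0.18 (95% CI -0.05 to 0.82, limma adjusted p = 0.59). On the lower side, 244914_at gave 3.30, 1.36 and 1.62 in *gis5*, against 14.1, 21.4 and 2.01 in WT, a log2 ratio of -0.59 ± 0.28 that became -1.75 with 1 added to each signal in place of 16. 244930_at gave 5.04, 4.56 and 4.87 in *gis5*, against 42.4, 3.66 and 21.8 in WT, a log2 ratio of -0.76 ± 0.38, the lowest of the 45 with 16 added, and of -1.52 with 1 added. In both, 1 WT array was at the level of the *gis5* arrays, and all signals on the *gis5* side were under 16.

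The ratios differed with signal. With a limit of 100 on the mean signal, which was chosen after the values were seen, 8 probe sets were brighter. These were *nad4*, *ccmFN1*, *rps3*/*rpl16*, *orf149*, *ccmFC*, *mttB*, 244906_at and 244921_s_at. All 8 ratios were above 0, from 0.13 to 0.94 with a median of 0.43, where 55.1% of the 10515 probe sets of the array with a mean signal between 100 and 1000 were above 0. The other 37 had 20 ratios above 0 and 17 below, with a median of 0.02. Of the 77 chloroplast probe sets of the array, 62 had ratios above 0 and 15 below, with a median of 0.17. A lean above 0 was thus not particular to the mitochondrial block. The ratios of the 8 brighter mitochondrial probe sets were above 0 under each alternative fit that kept all 8, except without *gis5* replicate 2. There 244921_s_at had a ratio of -0.0858. Their median was 0.26 without WT replicate 1 and 0.68 without WT replicate 2, and the lowest ratio was 0.00105 without WT replicate 3. These fits reuse the same arrays and the same choice of 8, so they are no separate support. The 95% confidence interval lay within -1 and 1 for 3 of the 8. For the dimmer probe sets the 16 added to each signal narrows the interval, which then sets no limit on the fold change. The median standard deviation of log2(signal + 16) within a genotype was 0.38 for the 8 brighter and 0.59 for the 37 dimmer probe sets, against 0.27 for all probe sets tested. A more than 10-fold range over the 6 arrays was found for 16 of the 37 and for 0 of the 8.

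**Figure D2:**
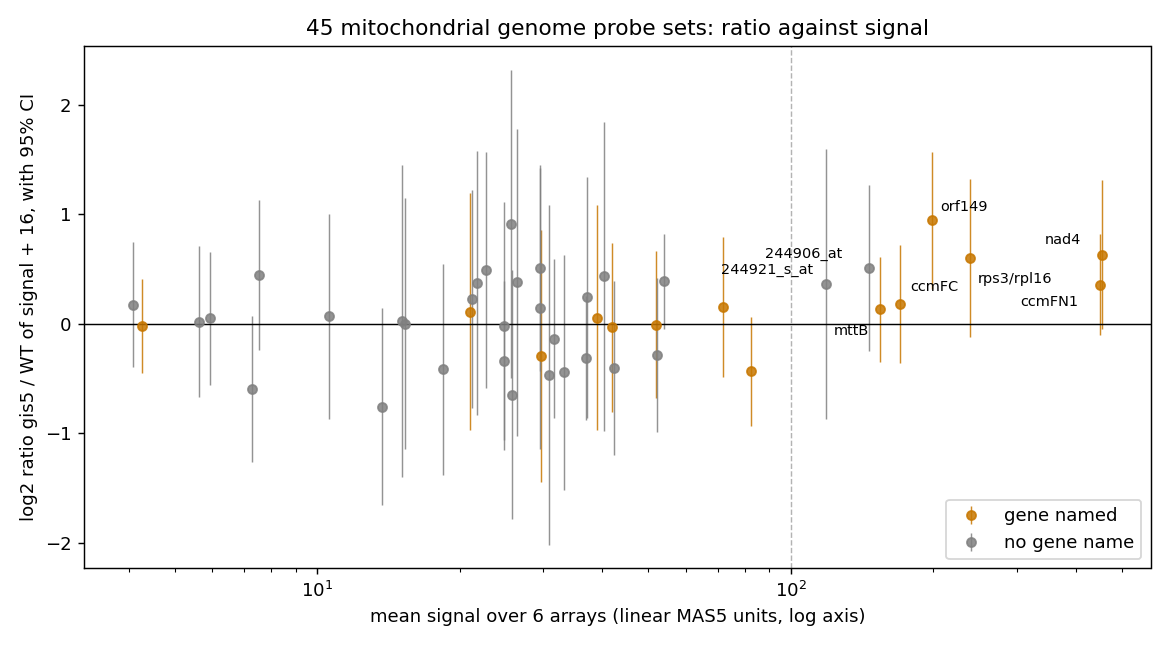
Log2 ratio of *gis5* over WT, on the scale of signal + 16, against mean signal over the 6 arrays (log axis) for the 45 mitochondrial probe sets, with 95% confidence intervals; orange points have a gene name and grey points have none, and the dashed line marks a mean signal of 100. All 8 points to the right of the line lie above 0, while the 37 to its left lie on both sides of 0 with wide intervals.

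The summed signal of the 45 probe sets was 3024, 3884 and 2997 in *gis5*, against 2476, 2819 and 2712 in WT. All 3 *gis5* sums exceeded all 3 WT sums, and the ratio of the means, 3302 ± 505 in *gis5* and 2669 ± 176 in WT, was 1.24. As a share of all signal on the array these sums were 0.0182%, 0.0236% and 0.0181% in *gis5*, and 0.0145%, 0.0166% and 0.0160% in WT. The 4 with the largest difference in mean signal, *nad4*, *orf149*, *ccmFN1* and *rps3*/*rpl16*, were picked by that difference on these same arrays. Their separation and the smaller ratio without them therefore follow in part from the choice. These 4 summed to 1519, 1855 and 1464 in *gis5*, against 906, 1259 and 1038 in WT. The remaining 41 summed to 1505, 2029 and 1533 in *gis5*, against 1569, 1560 and 1674 in WT, where the groups overlapped and the ratio of means was 1.06. The groups also overlapped without *nad4* alone (ratio 1.19) and after quantile normalization (1.17). For the 14 named probe sets the ratio was 1.32 and for the 31 unnamed 1.08. The named set holds *orf149*, whose name comes from a list ordered by difference on these same arrays, so this contrast is partly set by selection.

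Replicate 2 was often the highest array of its genotype in the brighter organelle signals. *gis5* replicate 2 was the highest *gis5* array for 7 of the 8 brighter mitochondrial probe sets and for 57 of the 77 chloroplast probe sets, and WT replicate 2 was the highest WT array for 5 of the 8 and for 62 of the 77. Over all 45 mitochondrial probe sets *gis5* replicate 2 was the highest *gis5* array for 22, but WT replicate 2 the highest WT array for only 13, against 19 for WT replicate 3. The chloroplast sum was 420156, 494249 and 394204 in *gis5*, against 375708, 508940 and 381594 in WT, a ratio of 1.03. The control probe set for 25S ribosomal RNA, which has no poly(A) tail, read 4166, 4464 and 2734 in *gis5*, against 3219, 7078 and 5348 in WT, and was likewise highest in replicate 2 of each genotype. The 3′ to 5′ signal ratio of the actin control, a measure of RNA integrity and labelling length, was 4.54, 4.99 and 4.39 in *gis5*, against 3.30, 5.29 and 6.42 in WT. WT replicate 1 had the lowest actin ratio of the 6 arrays, and also the lowest mitochondrial and chloroplast sums. The lowest 25S signal was that of *gis5* replicate 3. The part of RNA integrity and of labelling of RNA without a tail in the mitochondrial values was not tested.

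**Figure D3:**
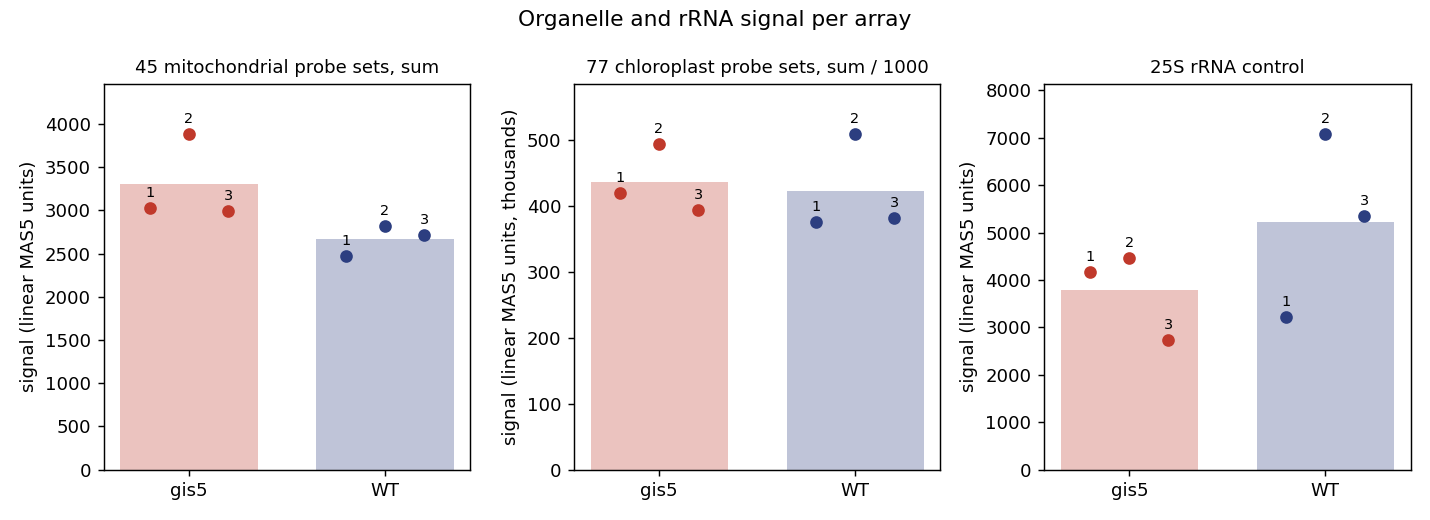
Summed signal of the 45 mitochondrial probe sets (left), of the 77 chloroplast probe sets divided by 1000 (middle), and signal of the 25S ribosomal RNA control (right), on each array (points, numbered by replicate) with group means as bars, *gis5* left of WT in each panel. The mitochondrial sums of *gis5* lie above those of WT, the chloroplast sums overlap, and replicate 2 is the highest point of its genotype in each panel.

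Further mitochondrial genes are represented on the array outside the block, by 22 probe sets, of which 11 are also assigned to a nuclear copy on chromosome 2. Their ratios were above 0 for 10 and below 0 for 12, and their summed signal gave a ratio of 0.933, on the other side of 1 from the block. Of the 6 with a mean signal of at least 100, 3 were above 0 and 3 below. *cox1*, the catalytic subunit of cytochrome *c* oxidase, gave 253, 557 and 326 in *gis5*, against 286, 517 and 282 in WT, a log2 ratio of 0.04 ± 0.35, with replicate 2 the highest in both genotypes. The lowest ratio of the 6, -1.03 ± 0.59, belonged to 257324_at, a probe set of *nad1*, with 15.2, 95.6 and 108 in *gis5*, against 81.3, 137 and 231 in WT.

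*atp9*, the ring subunit of the ATP synthase, shares its probe set with the nuclear copy AT2G07671 and gave 534, 542 and 423 in *gis5*, against 650, 626 and 649 in WT. Every *gis5* array was below every WT array, with a log2 ratio of -0.36 ± 0.16 (limma adjusted p = 0.57). *atp1*, the α subunit of the same enzyme, shared with AT2G07698, gave 422, 537 and 284 in *gis5*, against 228, 406 and 350 in WT, a log2 ratio of 0.32 ± 0.30. Of the dimmer ones, *rps7*, a ribosomal protein gene shared with AT2G07696, gave 110, 97.8 and 43.1 in *gis5*, against 27.6, 45.6 and 3.82 in WT, a log2 ratio of 1.33 ± 0.48 (limma adjusted p = 0.48). The groups of *rps7* overlapped, as *gis5* replicate 3 lay below WT replicate 2. *cob*, which encodes cytochrome *b* of complex III and is shared with AT2G07727, had a ratio of 0.58 ± 0.31. A probe set shared by *nad1* and AT2G07701 went the other way, with 24.1, 15.3 and 2.14 in *gis5*, against 72.5, 20.1 and 39.2 in WT, a log2 ratio of -0.98 ± 0.41 (limma adjusted p = 0.55). The ratios of the mitochondrial transcripts thus ran in both directions within the ATP synthase as they did within complex I, and none passed the test.

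The 5 probe sets of the block that were left out for a nuclear gene all belong to chromosome 2. Their ratios were above 0 for 2 and below 0 for 3, and with them included the median of the then 50 probe sets was 0.06. The 10 probe sets of the 45 whose names end in _s_at match more than 1 transcript, and without them the median of the other 35 was 0.11.

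Nuclear genes of the same complexes were described next to the mitochondrial ones. Of a list of 36 nuclear respiratory genes 16 could be matched to a probe set, and 14 of these had ratios above 0 and 2 below, with a median of 0.13, against 53.6% above 0 and a median of 0.03 for all probe sets tested. None passed an adjusted p under 0.05, and 2 were higher in *gis5* at an unadjusted p under 0.05 (5.99% of all probe sets). *CYTC-2*, a cytochrome *c* gene, gave 807, 1267 and 1114 in *gis5*, against 631, 660 and 723 in WT, a log2 ratio of 0.63 ± 0.20 (limma adjusted p = 0.45). *SDH1-1*, the flavoprotein of complex II, gave 1904, 1609 and 1897 in *gis5*, against 1250, 1357 and 1513 in WT, a log2 ratio of 0.39 ± 0.16 (limma adjusted p = 0.54). The *gis5* arrays lay above the WT arrays for both and for *COX5B-2*, a complex IV subunit gene, with 1178, 1296 and 1538 in *gis5*, against 1122, 1178 and 879 in WT, the lowest *gis5* array being above WT replicate 2 by less than 1 unit, which makes 3 of 16 (9.13% of all probe sets).

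The nuclear genes that act on mitochondrial DNA and RNA could be matched for 6 of 28, with 5 ratios above 0 and 1 below and a median of 0.30. Over all probe sets tested, 53.6% were above 0 and the median was 0.03. The mean signals of the 6 were low, with a median of 61.5. At an unadjusted limma p under 0.05, 1 of the 6 was higher in *gis5* (5.99% of all probe sets) and 0 were lower (3.06%). *NMAT4*, a nuclear maturase for mitochondrial introns, averaged 40.4 ± 11.9 in *gis5* and 17.8 ± 8.56 in WT, and its log2 ratio was 0.75 ± 0.26 (limma adjusted p = 0.47), while *NMAT2*, of the same family, averaged 199 ± 26.6 in *gis5* and 275 ± 57.0 in WT, and its log2 ratio was -0.43 ± 0.20 (limma adjusted p = 0.59). Of a list of 14 genes linked to mitochondrial dysfunction, among them alternative oxidases and alternative NADH dehydrogenases, 2 could be matched. *UPOX*, which encodes a mitochondrial protein induced by oxidative stress, gave 178, 239 and 173 in *gis5*, against 59.5, 80.7 and 36.4 in WT, with no overlap, a log2 ratio of 1.54 ± 0.26 and an adjusted p of 0.16 by limma. *NDB2*, an alternative NADH dehydrogenase, gave 366, 316 and 339 in *gis5*, against 148, 259 and 279 in WT, a log2 ratio of 0.59 ± 0.25 (limma adjusted p = 0.56). Neither gene passed an adjusted p under 0.05. *UPOX* met the thresholds of the study's methods as applied above (1.38% of all probe sets higher in *gis5*), with an unadjusted limma p of 0.00071. The list genes that could not be matched through the annotation table were not analysed here.

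**Figure D4:**
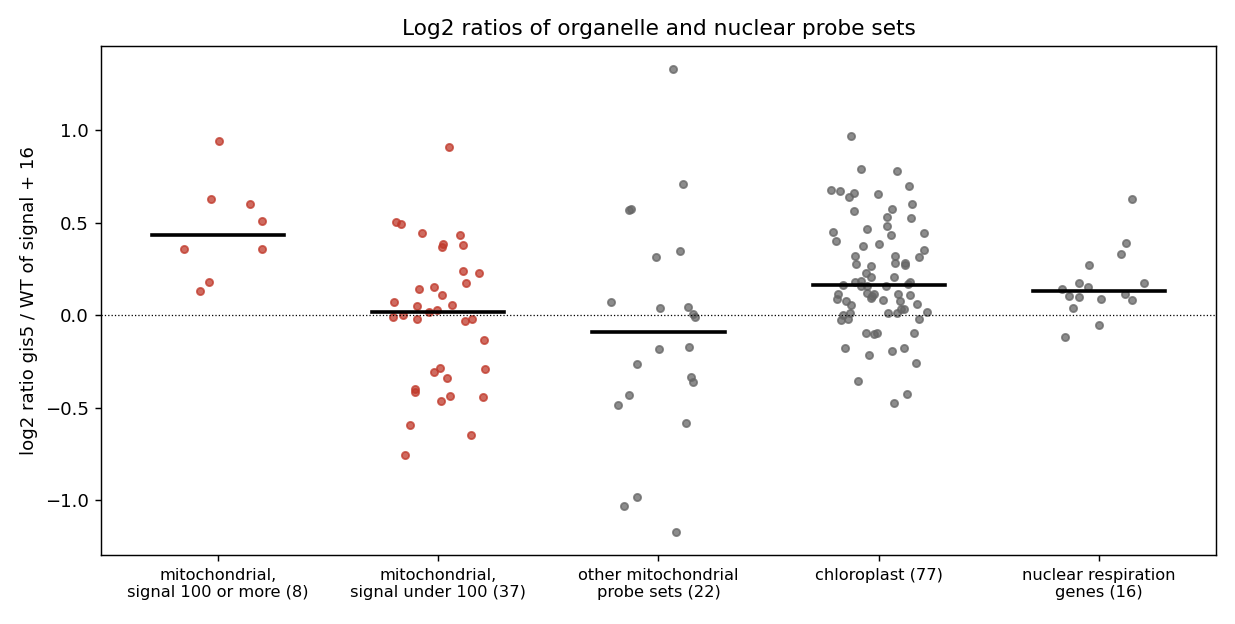
Log2 ratio of *gis5* over WT, on the scale of signal + 16, for single probe sets (points) of the mitochondrial block with a mean signal of at least 100 or under 100, of the 22 mitochondrial probe sets outside the block, of the 77 chloroplast probe sets and of the 16 nuclear respiratory genes, with lines at the medians. The medians are 0.43, 0.02, -0.09, 0.17 and 0.13 in that order from left to right, and in each set except the first points lie on both sides of 0.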

How the data were processed

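The authors deposited 1 table of signal intensity per probe set and array, linear and not log-transformed. MAS5 is named in their processing notes, with no version, and on every array the 2% trimmed mean is 500. The study's methods describe RMA values for its own gene list, which were not used here. Detection calls and raw array files were not analysed here. No depth exists for arrays, and their number limits the precision.

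Intensities were analysed as log2(signal + 16) with limma 3.58.1 (lmFit and eBayes) in R 4.3.3 over all 22746 probe sets without the 64 Affymetrix controls, with Benjamini-Hochberg adjustment over all of them. No filter on low signals was used. Members and lists were chosen with earlier results of these data known. Mitochondrial names come from the platform annotation, matched by symbol or synonym to the mitochondrial genes of RefSeq TAIR10.1, which holds 32 protein-coding gene symbols, 14 of them with a probe set among the 45. 13 probe sets were named this way and 1 from a supplementary table.

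Named were every probe set with a gene symbol, the 3 brightest of the open reading frames and unnamed probe sets, and the 3 with the smallest p in each direction. Alternatives were pseudocounts of 1 and 64, quantile normalization, median centring, a replicate block, leaving out each array, a filter at the median signal, no _s_at or _x_at probe sets, named probe sets only, and a trended and robust variance. The replicate numbers were not treated as pairs.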

Additional observations from a re-analysis of the deposited data

How the results depend on the processing

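The count of mitochondrial probe sets at an adjusted p under 0.05 (limma) was 0 under every alternative run, although the filter at the median signal left 109 calls (0.958%) and the trended and robust variance 145 (0.637%) over the array. At an unadjusted limma p under 0.05 and higher in *gis5*, the count was 2 with a pseudocount of 64 (6.71% of all probe sets). It was 2 with the replicate block (5.28%) and 3 with the trended and robust variance (6.75%). As single arrays were left out it was 1 to 4 (4.62% to 6.72%). With the filter at the median signal it was 3 of the 4 probe sets kept (7.95%), a filter that *orf149* passed only through its *gis5* arrays. For lower in *gis5* it was 1 after quantile normalization (4.07%), 1 after median centring (4.98%) and 0 to 2 without single arrays (2.15% to 3.67%). Probe sets with every *gis5* array above WT numbered 1 after quantile normalization (7.71% of all probe sets) and 1 after median centring (6.21%). They numbered 1 of the 4 kept with the filter at the median signal (9.73%) and 1 among named probe sets only. Without single arrays they numbered 2 to 7. Those with every *gis5* array below WT numbered 1 after quantile normalization (8.01%), 1 after median centring (10.8%), and 1 to 5 without single arrays. With 1 array left out, the groups did not overlap for 13.7% to 16.5% (above) and 10% to 12.8% (below) of all probe sets. The thresholds of the study's methods were met by 1 probe set with a pseudocount of 1 (3.33% of all probe sets). They were met by 0 to 2 without single arrays (2.32% to 3%). The cause of these moves was not tested.

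The median ratio was 0.61 with the filter at the median signal, which keeps 4 probe sets, *orf149* only through its *gis5* arrays, and 0.43 for the 8 with a mean signal of at least 100, an alternative chosen after seeing the data. It was -0.0039 to 0.15 without single arrays, with the lowest without *gis5* replicate 3. The ratio of summed signals was 1.32 for named probe sets only, a set that holds *orf149* through a list ordered by difference on these arrays. It was 1.06 without the 4 probe sets with the largest difference, also chosen after seeing the data. The ratio of *matR* was 0.10 with a pseudocount of 1, and that of *nad6* was -0.0298 after quantile normalization and -0.0144 after median centring. Without single arrays the ratios ranged from -0.22 to 0.18 for *nad4L*, -0.0446 to 0.37 for *cox2*, -0.15 to 0.54 for *nad7*, -0.29 to 0.28 for *ccmB*, -0.26 to 0.47 for *nad6*, -0.85 to 0.18 for *ccmFN2*, -0.13 to 0.13 for *matR* and -0.0858 to 0.81 for 244921_s_at. The other probe sets described singly in the block kept their sign under the alternatives run.

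Deviations of arrays with the same replicate number correlated at -0.06, -0.00028 and -0.04 over all probe sets, at 0.22, 0.17 and -0.0096 over the 45 and at -0.21, 0.52 and 0.0033 over the chloroplast probe sets. Not every pair reached 0.1, so the replicate numbers were not treated as pairs. For the chloroplast probe sets the arrays of replicate 2 did vary together, at 0.52, and the cause was not tested. With the replicate block the adjusted p of *orf149* was 0.49, and with the filter at the median signal 0.0612. Low signal limits most of the 45 values.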

Other observations

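Of the 22 mitochondrial probe sets outside the block, 7 are assigned by the platform annotation to *nad1* alone, the gene of a membrane subunit of complex I. Their ratios were above 0 for 2 and below 0 for 5. The lowest, 257327_at, gave 3.64, 5.40 and 19.6 in *gis5*, against 58.5, 29.3 and 35.0 in WT, with no overlap and a log2 ratio of -1.17 ± 0.30 (limma adjusted p = 0.32). The highest, 257323_at, gave 13.3, 29.8 and 16.4 in *gis5*, against 1.63, 1.64 and 15.9 in WT, a log2 ratio of 0.71 ± 0.30 (limma adjusted p = 0.55). These 2 ratios were of opposite sign, both at mean signals under 100, and neither passed the test. For some of these 7 a supplementary table of the study gives the name of another open reading frame, so that the gene they report is not settled.

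In the same region of the array design, AT2G07732, a nuclear gene of chromosome 2 whose probe set was left out of the block, gave 3.64, 0.915 and 0.858 in *gis5*, against 19.6, 8.82 and 8.44 in WT, a log2 ratio of -0.65 ± 0.20 (limma adjusted p = 0.43). The *gis5* arrays were all below the WT arrays, with both groups near the bottom of the signal range.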
